A study of Mus musculus with 6 samples.

Results

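Alternative RNA processing of translation factors and cytosolic ribosomal proteins was described in mouse brain, over the 151 array events, in 84 genes, whose gene symbols name them. Taken were initiation factors (*Eif*), elongation factors (*Eef*), ribosomal proteins (*Rpl* and *Rps*), termination factors (*Etf1*, *Gspt1* and *Gspt2*) and aminoacyl-tRNA synthetases. Symbols that name a synthetase end in ars, or in ars2 for the mitochondrial enzymes. Events in the congenic interval of chromosome 19 were to be left out, and 0 of the 151 lay there. The events of *Rps6ka4* and *Rps6kb2* lie on chromosome 19 outside that interval, and whether linked CAST sequence reaches them was not tested. The whole table held 12948 events with intensities, in 7766 genes. All 151 events had intensities and no filter removed any of them. The name rule also took in genes that are not part of the machinery itself. These were the S6 kinase family (*Rps6k*), the kinases and binding proteins that regulate translation (*Eif2ak*, *Eef2k*, *Eif4ebp*), the Argonautes under their older names (*Eif2c1* and *Eif2c3*) and *Rps19bp1*, whose product binds a ribosomal protein.

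Total brain RNA of 6 mice of a B6.CAST congenic line was hybridized to Affymetrix splicing-sensitive arrays, 1 array for each animal. Of these, 3 were homozygous for the B6 allele of *Nxf1* (*Nxf1* B6) and 3 for the CAST allele (*Nxf1* CAST), in same-sex pairs. *Nxf1* encodes the main receptor for export of mRNA from the nucleus. Of the 2 female pairs, 1 was 46 and 1 was 23 days of age. The male pair joined a *Nxf1* B6 animal of 22 days to a *Nxf1* CAST animal of 23 days. A congenic *Nxf1* CAST animal carries CAST sequence around *Nxf1* as well, so the allele and its linked segment cannot be told apart. The table gives 1 intensity per path for a set A and 1 for a set B, each summarizing all 3 arrays of that set. Set B was likely *Nxf1* CAST and set A *Nxf1* B6, since the table's header names the controls before the experimental animals and *Nxf1* B6 served as the control, but no column names the genotype. The table also carries a score and a q-value of the authors' own paired and standard comparisons, which were not used. The intensities alone, with 1 pooled value per set, give no replicate error and no test, so every difference given here compares these 2 pooled sets and not the genotypes as populations. The number of arrays limits the precision of all of them.

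In translation, initiation factors recruit the small ribosomal subunit to the capped end of an mRNA, elongation factors bring charged tRNAs and move the ribosome along, and synthetases load each tRNA with its amino acid. Ribosomal protein genes are among the most strongly expressed genes of a cell. In vertebrates their mRNAs begin with a run of pyrimidines, the 5′ terminal oligopyrimidine tract, through which the mTOR pathway controls their translation. Many of them also carry small nucleolar RNAs in their introns and have intronless, near-identical copies elsewhere in the genome, so that array probes for their exons can pick up more than 1 locus.

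The sequences around the annotated starts are shown because a pyrimidine run there is known for ribosomal protein mRNAs and was not used by the name rule. Each stretch of 30 bases, from RefSeq on GRCm38.p6, holds 12 bases before the start and 18 from the start on. Capitals mark the longest unbroken run of C and T that covers a base within 2 of the start. The first 6 genes are ribosomal protein genes with an event past the fold defined below, *Rpl7a* and *Rpl13a* have longer runs and no event past the fold, and *Eif4g1* is an initiation factor for comparison.
*Rps27* (chr3:90213631-90213660, minus strand): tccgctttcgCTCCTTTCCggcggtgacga
*Rps9* (chr7:3704029-3704058, plus strand): gccttgTCTCTCTTTgtctcgggcctgagt
*Rpl31* (chr1:39367839-39367868, plus strand): cctcctcgCCTCCCCgtgacccggaagttg
*Rps13* (chr7:116334173-116334202, minus strand): agcaaacgtcggTgagtggcgtcacttcct
*Rpl13* (chr8:123102338-123102367, plus strand): cctttcgcctgaTTTTgattggcgtttgag
*Rps19* (chr7:24884580-24884609, plus strand): gaaatctcgcgagaCTCgacgcccgacttg
*Rpl7a* (chr2:26910795-26910824, plus strand): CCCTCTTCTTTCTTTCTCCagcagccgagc
*Rpl13a* (chr7:45128728-45128757, minus strand): accctgcgacaagaCCTCCTCCTTTCCCag
*Eif4g1* (chr16:20672715-20672744, plus strand): cagcgcagctccgCCCTCTgcgccggtcac

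A run of at least 7 pyrimidines stood at the start of 10 of 24 ribosomal protein genes with a start sequence (41.7%), and of 2 of 42 other members (4.76%). Over all 27025 genes with a start sequence the share was 9.79%. The pair of other members was *Eif2s3y*, a subunit of eIF2 encoded on the Y chromosome, and *Eif3l*, a subunit of eIF3 that the table lists under its older symbol *Eif3eip*. The array event listed under *Eif2s3y* is placed on chromosome 7, and whether it belongs to transcripts of the Y-linked gene was not tested. The run was 9 bases in *Rps27* and *Rps9* and 7 in *Rpl31*, while *Rpl13*, *Rps19* and *Rps13* had 4, 3 and 1 pyrimidines in a row at the annotated start, so that 3 of these 6 genes reached 7. A run is a description of these letters, and a shorter run at an annotated start says nothing on where transcription begins in brain.

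For most events the table gives intensities of an exclusion path, which leaves the optional segment out, and an inclusion path, which keeps it. Some complex events have no exclusion path. In alternative starts and ends the paths are alternative transcript ends, so more exclusion there does not mean a skipped exon. The difference reported is log2(exclusion/inclusion) in set B minus that in set A, so a positive value means relatively more exclusion in set B. An event was called past the fold when the absolute difference was over 0.5, a 1.41-fold change of the ratio. Of the 151 events, 15 were past the fold (9.93%), against 7.34% of all events of the table. They lay in 15 of the 84 genes (17.9%), against 11.7% of all genes of the table. The median absolute difference was 0.20 in the members and 0.18 over all events. Of the 15 events, 7 had more exclusion in set B and 8 had less.

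**Figure D1:**
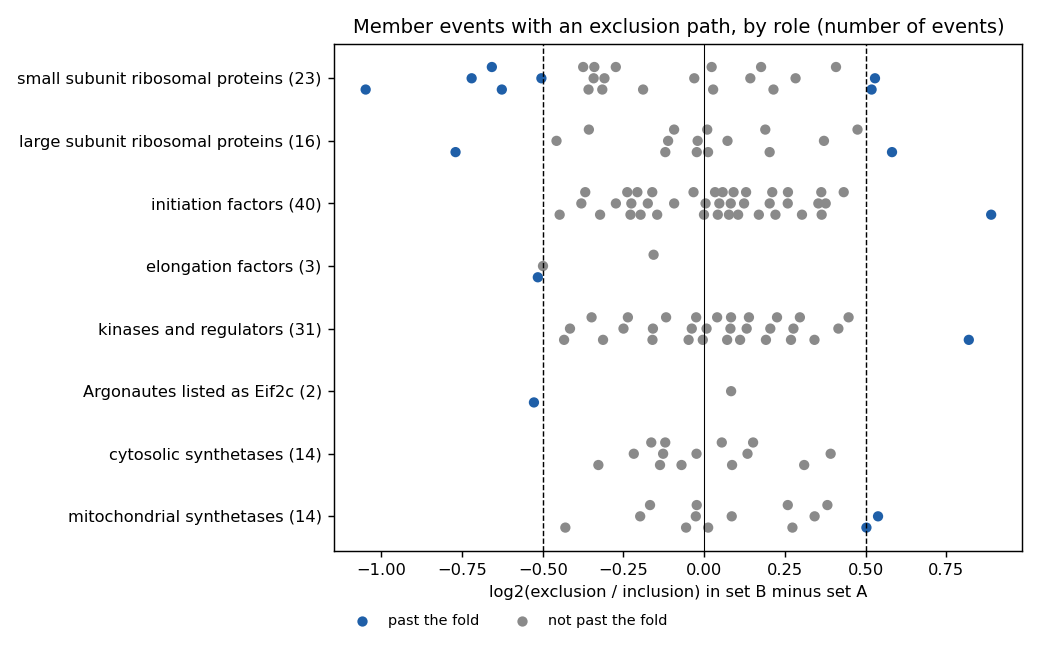
Difference in log2(exclusion/inclusion), set B minus set A, of the 143 member events that have an exclusion path, by role, with 1 point per event and the number of events in parentheses. The dashed lines mark 0.5 and -0.5. Past them lie 7 of the 23 small subunit events and 1 of the 40 initiation factor events, while the cytosolic synthetases lie between -0.33 and 0.39. Of all events of the table with an exclusion path, 7.24% lie past these values.

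Neither direction prevailed. Of the 143 events with an exclusion path, 51.7% had relatively more exclusion in set B, against 55.4% of the 12553 such events of the table. With the median of all events subtracted this share was 46.2%, so its side of 50% depends on the centring. The 8 other events are complex events without an exclusion path and carry no sign. At the threshold the order of events was tight. Just inside stood *Eef1b2* at -0.52, and just outside *Eef1e1* at -0.50, *Rpl7l1* at 0.47 and *Rpl13a* at -0.46. The absolute difference of *Eef1e1* was 0.499.

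In all 15 events past the fold the exclusion and the inclusion path moved opposite ways between the sets. Over the 143 events with an exclusion path this was so for 63 (44.1%). Over the table it was so for 39.4% of all such events and for 82.0% of those past the fold, a choice that favors it because opposite moves add to the difference.

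**Figure D2:**
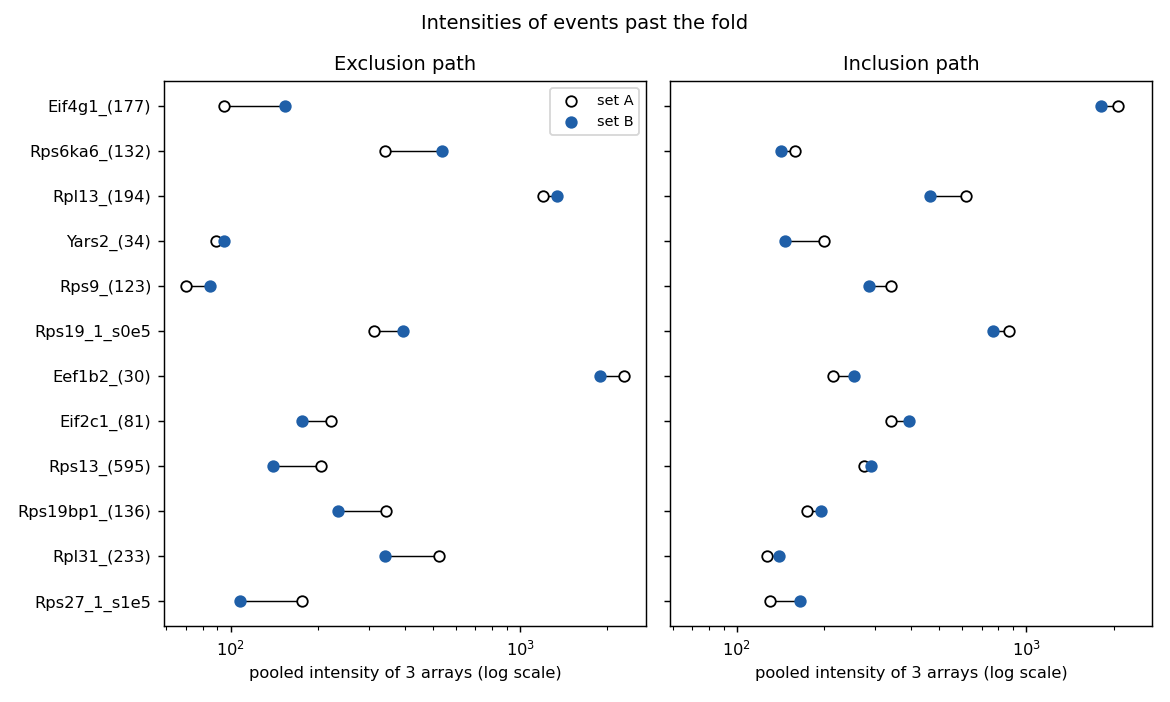
Pooled intensity of the exclusion path (left) and of the inclusion path (right) in set A (open circles) and set B (filled circles) for 12 of the 15 events past the fold, on logarithmic axes. From *Eif4g1* to *Rps19* the exclusion intensity is higher and the inclusion intensity lower in set B, and from *Eef1b2* to *Rps27* the reverse holds.

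Among ribosomal proteins of the small subunit, 7 of 23 events, in 18 genes, were past the fold (30.4%), against 7.34% of all events. The median absolute difference was 0.34, against 0.18 over all events. At the table's share for each type of event, 9.27% of these 23 events would be past the fold. Without *Rps19bp1* the count was 6 of 22. Of the 7, 5 had less exclusion in set B. With 32 added to each intensity, which shrinks ratios of dim paths most, the count was 4 of 23, and with 100 added it was 3 of 23. Over all events of the table these additions gave 4.12% and 1.73%.

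The largest absolute difference of any member was in *Rps27*, whose product is a zinc finger protein of the small subunit. This complex event lies at chr3:90017203-90017552 on the minus strand. Here and for all events below, positions are those of the table, which does not state its genome build, and they are not positions on GRCm38. The exclusion intensity was 176 in set A against 108 in set B, and the inclusion intensity was 130 in set A against 165 in set B. The exclusion path was thus the brighter path in set A and the dimmer one in set B. Each path has its own probe set, so brightness does not rank the amounts of the 2 forms within a set. The difference was -1.05, the only member event beyond 1 in absolute value, where 0.224% of all events lay. The exclusion intensity of 108 in set B was near the dim end of the array, just above 102, the 10th percentile of the table's intensities. With 32 added to each intensity the difference was -0.85, and with 100 added it was -0.61. It thus stayed past the fold but was no longer beyond 1. With 100 added the difference of *Rps6ka6* was larger in absolute value, at 0.63.

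A retained intron of *Rps13*, a small subunit protein, was also past the fold (chr7:123476592-123477230, minus strand). In such an event the exclusion path is the spliced form and the inclusion path the form that keeps the intron. The spliced form gave 205 in set A against 140 in set B. The intron gave 275 in set A against 290 in set B, and the difference was -0.63. The spliced signal was thus lower and the intron signal higher in set B.

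*Rps19*, whose product matures the small subunit and is known for its mutation in Diamond-Blackfan anemia, had an alternative start past the fold (chr7:25669653-25670154, plus strand). Its exclusion path gave 312 in set A against 393 in set B, and its inclusion path gave 871 in set A against 766 in set B. The difference was 0.52. The gene's cassette exon went the other way, at -0.32. The exon of *Rps19bp1* (chr15:80091804-80094433, minus strand), the gene of a nucleolar protein that binds the *Rps19* product, was skipped at 344 in set A against 234 in set B. Its inclusion gave 174 in set A against 195 in set B, and the difference was -0.72.

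*Rps9*, a small subunit protein, had a cassette exon with relatively more exclusion in set B (chr7:3656030-3657355, plus strand). Exclusion gave 70 in set A against 85 in set B, both under 102, the 10th percentile of the table's intensities. Inclusion gave 341 in set A against 287 in set B, and the difference was 0.53. The other event of *Rps9* had a difference of -0.03.

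The other 16 small subunit events lay within the threshold. *Rps6*, the classical substrate of the S6 kinases, had an alternative 3′ splice site with a difference of 0.18. Its inclusion path, with 6030 in set A against 6751 in set B, was the brightest of any small subunit event. *Rps24*, whose 3′ end is known for tissue-specific splicing, had 2 events with less exclusion in set B, at -0.34 and -0.37. *Rps3* had 2 retained introns at 0.02 and 0.14, and *Rps12* had 2 at 0.03 and -0.31. In the first *Rps12* intron both paths were dimmer in set B, 572 against 413 for the spliced form and 120 against 85 for the intron, so that its level was lower by 0.47 while its ratio was nearly equal.

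Among ribosomal proteins of the large subunit, 2 of 16 events, in 12 genes, were past the fold (12.5%), against 7.34% of all events. The median absolute difference was 0.15. Both events past the fold were retained introns, and they went opposite ways. For *Rpl31* (chr1:39427911-39428146, plus strand) the spliced form gave 526 in set A against 340 in set B. Its intron gave 127 in set A against 140 in set B, and the difference was -0.77. For *Rpl13* (chr8:125626866-125627103, plus strand) the spliced form gave 1199 in set A against 1345 in set B. Its intron gave 619 in set A against 464 in set B, and the difference was 0.58. The introns of *Rpl10a*, *Rpl7a* and *Rpl30* had differences of 0.01, -0.09 and 0.19, and the alternative starts of *Rpl21*, *Rpl23*, *Rpl35a* and the muscle paralog *Rpl3l* lay between -0.02 and 0.07. The 3 largest values within the threshold were the alternative end of *Rpl7l1* at 0.47, the alternative start of *Rpl13a* at -0.46 and the intron of *Rpl13a* at 0.37.

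Retained introns made up 17.2% of the member events and 8.22% of all events of the table. Of the 14 retained introns in ribosomal protein genes, 4 were past the fold (28.6%), 3 with less and 1 with more of the spliced form in set B. Of all 1064 retained introns of the table, 9.87% were past it. Of 26 retained introns in all members, those 4 were the only ones past it. With less exclusion in set B were 7 of the 14 introns, so the introns of ribosomal protein genes had no common direction.

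**Figure D3:**
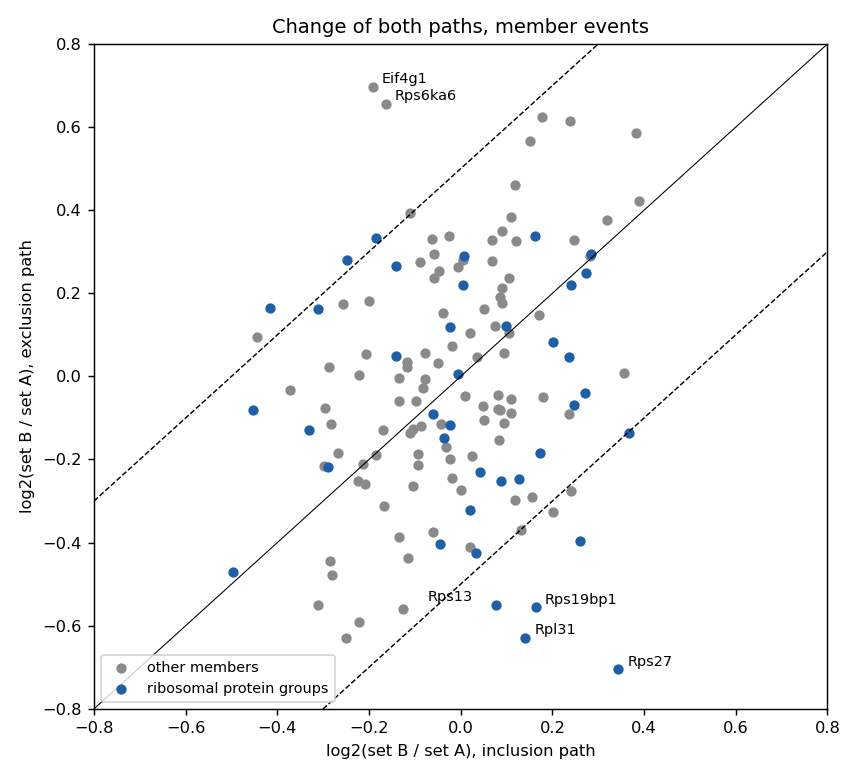
Change of the exclusion path (vertical axis) against that of the inclusion path (horizontal axis), each as log2 of set B over set A, for the 143 member events with an exclusion path; ribosomal protein groups are blue and other members grey. On the solid line both paths change alike, and beyond the dashed lines the difference is over 0.5. Lower right lie *Rps27* at -1.05, *Rpl31* at -0.77 and *Rps19bp1* at -0.72, and upper left *Eif4g1* at 0.89 and *Rps6ka6* at 0.82.

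RefSeq places a small nucleolar RNA gene inside 20 of the 84 member genes (23.8%) and inside 198 of 7193 matched genes of the table (2.75%). Among the members, 6 of 35 events in such host genes were past the fold (17.1%) and 9 of 116 events in other genes (7.76%). Over the table the shares were 7.16% of 419 host gene events and 7.36% of 11684 other events. Host genes among the 6 events were *Rps13*, which holds *Snord14a*, *Rpl13*, which holds *Snord68*, *Eef1b2* and *Eif4g1*. Whether the small nucleolar RNAs lie in the measured introns was not tested, as the positions come from different builds.

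Among initiation factors the median absolute difference was 0.20, over 46 events in 21 genes. Of these events, 1 was past the fold (2.17%), against 7.34% of all events. It was a cassette exon of *Eif4g1*, the scaffold that holds the cap-binding protein and the RNA helicase of the eIF4F complex together (chr16:20668477-20675823, plus strand). Exclusion gave 95 in set A against 154 in set B, and inclusion 2073 in set A against 1815 in set B. The difference was 0.89, a ratio 1.85 times higher in set B, with an exclusion signal near the dim end of the array. The other cassette exon of *Eif4g1*, with 841 and 949 for exclusion and 1675 and 1401 for inclusion, went the same way at 0.43. This second event (chr16:20672949-20673940) lies within the span of the first, and whether the 2 are independent of each other was not tested. Inclusion intensities stayed above exclusion intensities in both exons and both sets, which does not rank the forms, as each path has its own probe set.

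The other members of eIF4F and its helpers lay within the threshold. The helicase *Eif4a1* had an alternative 3′ splice site at -0.45 and a retained intron with no difference to 2 decimals, 2253 and 2423 for the spliced form and 250 and 269 for the intron. Its paralog *Eif4a2*, the form prevalent in brain, had 3 events with more exclusion in set B, at 0.05, 0.26 and 0.30. *Eif4a3*, a core subunit of the exon junction complex, had a cassette exon at 0.35. The helicase cofactors *Eif4b* and *Eif4h* stood at 0.36 and 0.11. *Eif4e2*, a cap-binding protein, had an alternative 5′ splice site at -0.27 and a complex event without a sign at 0.18. The scaffold paralogs *Eif4g2* and *Eif4g3* ranged from -0.23 to -0.09 over 2 events and, over the 6 of 7 *Eif4g3* events with a sign, from -0.15 to 0.36. The seventh *Eif4g3* event carries no sign and stood at 0.26. No event of *Eif4e* or *Eif4e3* was in the table.

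Factors that deliver the initiator tRNA and select the start codon, and others with an *Eif* symbol, had values of the same range. *Eif2s2*, the beta subunit of eIF2, had a retained intron at -0.38, with 147 and 95 for the spliced form and 271 and 228 for the intron. The exchange factor subunits *Eif2b3* and *Eif2b4* lay between -0.17 and 0.21. *Eif5*, which activates GTP hydrolysis by eIF2, had 5 events, of which the 4 with a sign ranged from -0.37 to 0.26. *Eif3k*, a subunit of eIF3, had a cassette exon at -0.32 and an alternative end at 0.04. *Eif5a* was grouped here by its symbol alone. Its events, 2 in number, share 1 inclusion path, with 3832 in set A against 4068 in set B, and are not independent of each other.

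**Figure D4:**
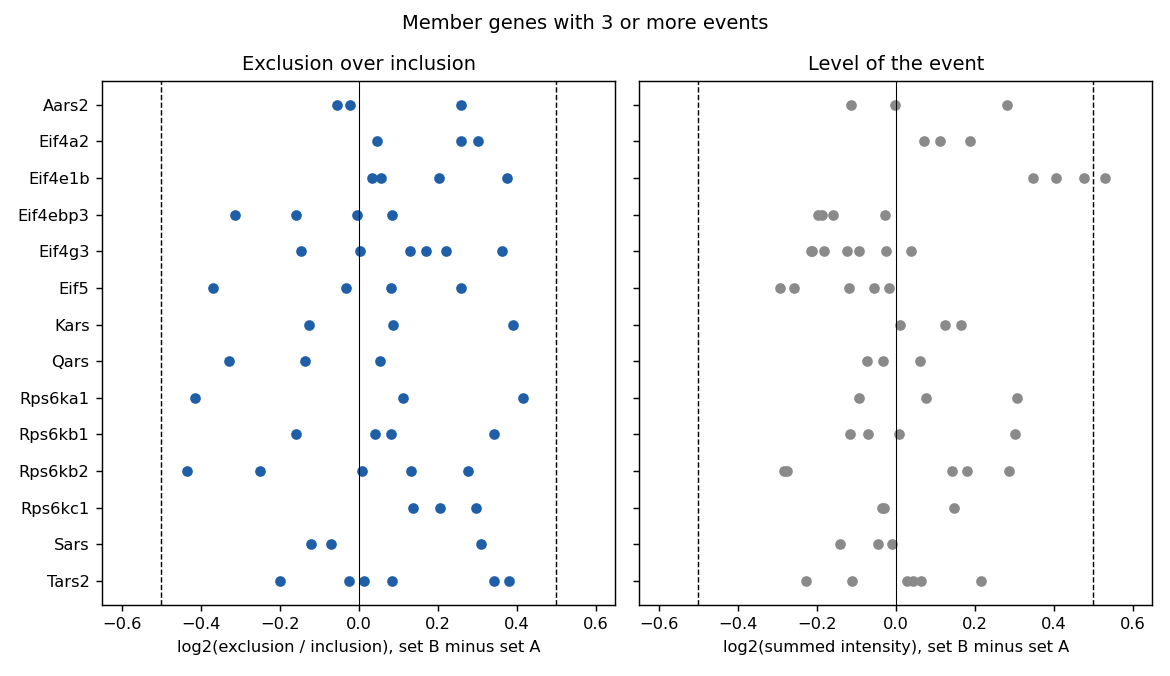
The 14 member genes with 3 or more events, 56 events in all: difference in log2(exclusion/inclusion) (left, events with an exclusion path) and difference in log2 summed intensity (right, all events), set B minus set A, 1 point per event. The dashed lines mark 0.5 and -0.5. All 4 *Eif4e1b* events lie between 0.35 and 0.53 in level, and all 5 of *Eif5* between -0.29 and -0.02.

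The level of an event, log2 of its summed exclusion and inclusion intensities in set B minus set A, was also set side by side. Of all member events, 1 had an absolute level difference over 0.5, against 0.811% of all events. It was a cassette exon of *Eif4e1b*, the paralog of the cap-binding protein known from oocytes, with 411 and 629 for exclusion and 134 and 158 for inclusion, a level higher by 0.53. The other *Eif4e1b* events were higher by 0.35, 0.41 and 0.48, with all but 2 of their intensities under 160, near the dim end of the array. In bulk brain RNA, fewer cells of a type and less RNA per cell cannot be told apart. Of the 14 genes with 3 or more events, 6 had all levels on 1 side. *Eif4e1b*, *Eif4a2* and *Kars* were higher in set B, and *Eif5*, *Eif4ebp3* and *Sars* lower. Only *Eif4e1b* lay beyond 0.30 in all of its events. The median level difference over the members was -0.03.

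The group of elongation factors held 3 genes by symbol, *Eef1b2*, *Eef1d* and *Eef1e1*. Of its 4 events 1 was past the fold, against 7.34% of all events. *Eef1b2* and *Eef1d* encode subunits of the exchange factor that recharges the tRNA carrier eEF1A with GTP. At the alternative 3′ splice site of *Eef1b2* (chr1:63223845-63224348, plus strand), exclusion gave 2289 in set A against 1892 in set B, and inclusion 215 in set A against 254 in set B. The difference was -0.52. *Eef1e1*, whose product is a scaffold of the synthetase complex, was grouped here by its symbol alone. It had an alternative end with 652 and 505 for exclusion and 116 and 127 for inclusion, just within the threshold. The alternative end of *Eef1d* stood at -0.16 and its complex event, without a sign, at 0.07. The 3 events of this group with a sign, that of *Eef1e1* among them, were all negative. No termination factor gene had an event.

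The kinases and regulators had 32 events in 15 genes, of which 1 was past the fold (3.12%), against 7.34% of all events. It was a cassette exon of *Rps6ka6*, which encodes the ribosomal S6 kinase RSK4 on the X chromosome (chrX:108503520-108512189, minus strand). Exclusion gave 342 in set A against 539 in set B, inclusion 159 in set A against 142 in set B, and the difference was 0.82. Its level was higher by 0.44 in set B, by way of the exclusion path. Both sets held the same sexes. *Rps6kb1*, the S6 kinase downstream of mTOR, had 4 events between -0.16 and 0.34, and its paralog *Rps6kb2* had 5 between -0.43 and 0.28. *Rps6ka1* had a cassette exon at -0.42 and an alternative 3′ splice site at 0.42, opposite in sign within 1 gene, and *Rps6kc1* had 3 events between 0.14 and 0.30. *Eef2k*, which phosphorylates and inhibits elongation factor eEF2, had a twin cassette at 0.45, with 185 and 285 for exclusion and 200 and 226 for inclusion. The eIF2 kinases *Eif2ak1*, *Eif2ak3* and *Eif2ak4*, which act in the integrated stress response, lay between -0.05 and 0.23. The 4 events listed under *Eif4ebp3*, of the family of proteins that sequester the cap-binding protein, lay between -0.31 and 0.08. The longest of them spans 53483 bases, and whether all 4 belong to transcripts of this gene was not tested.

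Of the Argonautes, which bind small RNAs and silence mRNAs, *Eif2c1* (now *Ago1*) had an alternative 3′ splice site past the fold (chr4:126137727-126138170, minus strand). Exclusion gave 222 in set A against 177 in set B, and inclusion 342 in set A against 393 in set B. The difference was -0.53. The alternative end of *Eif2c3* (now *Ago3*) stood at 0.08.

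The cytosolic synthetases were grouped by symbol alone, and where each enzyme acts was not tested. They had 14 events in 7 genes, none past the fold, against 7.34% of all events. Their median absolute difference was 0.14. The largest was a complex event of *Kars*, the lysyl-tRNA synthetase, at 0.39, with 580 and 729 for exclusion and 478 and 458 for inclusion. *Qars*, for glutamine, had a retained intron at -0.33, and *Sars*, for serine, an alternative end at 0.31. Among the mitochondrial synthetases 2 of 14 events, in 6 genes, were past the fold (14.3%), against 7.34% of all events. Both mitochondrial synthetase events past it had dim exclusion paths. In *Yars2*, the tyrosine enzyme (chr16:16304796-16306590, plus strand), exclusion gave 89 and 95 and inclusion 200 and 147, for 0.54. With 32 added to each intensity it was 0.44. *Tars2*, for threonine, had 6 events between -0.20 and 0.38, and *Aars2*, for alanine, 3 between -0.06 and 0.26.

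Translation genes that the name rule did not take in were looked up from a list of 58, of which 29 had 46 events. Of these, 4 were past the fold (8.70%), near the 7.34% of all events of the table. Among the 4, 2 had more and 2 had less exclusion in set B. *Pabpc4*, a poly(A)-binding protein, stood at 0.87, with 174 and 255 for exclusion and 375 and 301 for inclusion. *Abce1*, which splits ribosomes after termination, stood at 0.61. *Paip2*, an inhibitor of poly(A)-binding protein, stood at -0.55, with 3416 and 2252 for exclusion and 1379 and 1333 for inclusion. An alternative end listed under *Pelo*, which rescues stalled ribosomes, stood at -0.52. Other events of these genes lay within the threshold. Those of *Pabpc4* stood at 0.27 and -0.27, that of *Abce1* at 0.21, and those of *Pelo* between -0.07 and 0.29. The longest event listed under *Pelo* spans 143885 bases, and whether all of them belong to transcripts of this gene was not tested.

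The tissue label was checked against marker genes. Of 9 neuronal markers 7 had events, with brightest intensities of 365 to 12736, and of 8 glial markers 6 had events, with 977 to 11314. Of 10 markers of other tissues 4 had events, with 126 to 448. No marker event had a level difference over 0.5, and the median was -0.01 for neuronal, -0.05 for glial and 0.13 for other markers.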

How the data were processed

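Brain RNA of 3 *Nxf1* B6 and 3 *Nxf1* CAST animals was hybridized to splicing-sensitive arrays by the authors. The only table deposited by the authors that was used lists, for each path of an event, whole-number intensities (other: summarized intensity on a linear scale) of sets A and B, each summarizing the 3 arrays of its set. Per the file headers it also holds a separation score and a q-value for a paired and a standard comparison. These are the authors' own comparison and were not used. Affymetrix Power Tools are named in the submitters' processing notes. Background correction, normalization, pooling and genome build are not given in the sources used here.

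From the 26514 paths, of which 115 had no intensities, log2(exclusion/inclusion) was computed in each set with no pseudocount and no filter. An event took the path with the largest absolute difference and the sign of its exclusion path. The members and the lists of roles, other translation genes and markers were chosen with earlier results of these data known. Named were all events over 0.5, the largest of each role, the 3 nearest to the threshold on each side, genes with 3 or more events, and every eIF4F and elongation factor event; other events within the threshold that are named were chosen after their values were seen. Events of 3 genes past the fold enter the counts but are not reported here by name. Gene symbols were matched to RefSeq (GRCm38.p6), 81 by symbol and 3 by an older symbol. Start sequences were read for 67 members. Only 13 of 151 events (8.61%) overlapped their gene at its GRCm38 position, so the builds were not mixed. The calculation was tested on simulated data. Alternatives are given in the closing section. Python 3.11.15, numpy 2.4.6, pandas 2.3.3 and matplotlib 3.10.9 were used.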

Additional observations from a re-analysis of the deposited data

How the results depend on the processing

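No paired analysis was possible because the intensities used here are pooled over the 3 arrays of each set, and for the same reason no animal could be left out. The table's score and q-value for a paired comparison are the authors' own results and were not used. The count of member events past the fold, 15, was 50 with a threshold of 0.3 (33.1%, against 26.0% of all events), 1 with a threshold of 1 (0.662% against 0.224%), 8 with 32 added to each intensity (5.30% against 4.12%) and 7 with 100 added (4.64% against 1.73%). Why single events fell under the threshold was not tested. Of the 7 events that fell under it with 32 added, 5 were those of *Eef1b2* (-0.48), *Eif2c1* (-0.47), *Rps19* (0.48), *Rps9* (0.42) and *Yars2* (0.44). The lowest intensities of these 5 events, in the same order, were 215, 177, 312, 70 and 89. With 100 added *Rps13* joined them (-0.40). The other settings, among them the exclusion path alone (15), no dim events (11 of 117), the table median subtracted (13 of 143), the median of the event type subtracted (14 of 143), neither Argonautes nor kinases and regulators (13 of 117) and, chosen after seeing the data, no *Rps19bp1* (14 of 150), kept the count within 1.5 times. The share with more exclusion in set B ran from 46.2% with either median subtracted to 53.8% with 100 added. Dim exclusion paths limit the precision of *Eif4g1*, *Rps9* and *Yars2* most. The exclusion path of *Rps27* in set B, at 108, was also near the dim end of the array.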
